A study of Canis lupus familiaris with 6 samples.

Results

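Horizontal cells are the inhibitory interneurons of the outer retina. Here they were 372 of 82153 cell barcodes with at least 300 detected genes, from 6 single-cell libraries of dog neural retina. A barcode was taken as a horizontal cell when ONECUT1, ONECUT2 and LHX1 together held at least 2 UMIs (unique molecular identifiers, each marking 1 captured transcript) and at least 2 of these genes were detected. It also had to hold no UMI of the ganglion cell genes SLC17A6, POU4F1 and POU4F2. RLBP1, GLUL and SLC1A3 (Muller glia) had to stay under 0.3% of its UMIs, and TRPM1, PCP2, GNG13 and CABP5 (ON bipolar cells) under 0.1%. Since measured values chose these cells, the levels of the rule's genes are given as a description and were not tested.

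All 6 libraries came from wild-type dogs with healthy retinas that received immunosuppression and fragments of human retinal organoids under the retina. The organoids were grown from 1 embryonic stem cell line, WA09 CRX-tdTomato. On day 3, neural retina was punched at 5 mm width over the graft and, as control, in an area without graft, in 3 experiments named LG5, RC726 and RC724, so the control cells also come from grafted and immunosuppressed animals. The sources used here give neither the ages nor whether each experiment was a separate dog. The p-values below rest on these 3 pairs, and those of edgeR also on a spread shared across genes. Values by library are given in the order LG5, RC726, RC724.

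Horizontal cells receive glutamate from rods and cones and feed inhibition back to them, which sets the contrast and the receptive field surround of the photoreceptor output. Their fate depends on the ONECUT factors and PROX1, with LHX1 marking one kind of horizontal cell in several species, and their cytoplasm is rich in the calcium buffers CALB1 and, in many mammals, PVALB. Carnivore retinas hold an axon-bearing and an axonless kind, coupled within each kind by gap junctions.

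The 6 libraries held 34768162 to 60755006 UMIs in 8778 to 23908 deposited barcodes. Pairs of libraries shared 17 to 102 barcodes, and none of these belonged to a horizontal cell. The horizontal cells held 4010017 UMIs in all. Both LG5 libraries were processed with another major version of Cell Ranger than the rest, and some neuronal genes were far lower there: ESRRG read 36.6 and 13.1 CPM in LG5 against 784 to 1098 CPM in the other 4 libraries. CPM stands for the UMIs of a gene per 1000000 UMIs summed over the horizontal cells of 1 library. Whether the version sets this gap was not tested, and comparisons were made within experiments.

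There were 112, 35 and 58 horizontal cells over the graft and 80, 28 and 59 in control. They made up 0.469%, 0.302% and 0.596% of barcodes over the graft and 0.443%, 0.277% and 0.672% in control. The exact 95% binomial (Clopper-Pearson) intervals, which cover counting error only, overlap within every pair: 0.386% to 0.564% against 0.352% to 0.551% in LG5, 0.211% to 0.420% against 0.184% to 0.399% in RC726, and 0.453% to 0.770% against 0.512% to 0.866% in RC724. The share was thus 0.456% ± 0.147 over the graft and 0.464% ± 0.199 in control (SD, n = 3), and the mean log2 ratio was 0.01 ± 0.16 (SD, n = 3). An exact two-sided paired sign-flip test gave p = 1, where 3 pairs cannot give less than 0.25. The median UMI count per horizontal cell was 2772, 9979 and 23814 over the graft and 3992.5, 12445 and 19818 in control. The graft side was the lower in LG5 and RC726 and the higher in RC724 (mean log2 ratio -0.19 ± 0.41 (SD, n = 3), exact paired p = 0.500).

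The label was checked against genes the rule did not use. Of the 372 cells, 304 held CALB1 and PVALB at 0.1% of their UMIs or more, and 35 had no UMI of either. Of the 163 cells with at least 10 UMIs of the rule's genes, 98.2% reached that level, against 75.5% of the 155 cells with 3 to 9 UMIs and 27 of the 54 cells just inside the rule with exactly 2. Just outside it were 217 barcodes with at least 2 UMIs of only 1 of the genes, and 42 with enough marker UMIs that the ganglion (14), glia (5) and ON bipolar (23) limits removed. ONECUT1 and ONECUT2 occurred together in 348 cells, LHX1 in 125 and all 3 genes in 101.

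Some cells taken by the rule carried markers of other cells. A set of 9 graph-based clusters of the 372 cells was computed as a description. In 1 of them, with 25 cells, the cone genes PDE6H, ARR3, GNAT2 and CNGB3 were among the leading genes, CALB1 was seen in 4% of cells and PVALB in 0%, at a median of 15369 UMIs; these cells are cone-like. They had entered by ONECUT2 (25 cells) with LHX1 (20 cells), and ONECUT1 was seen in 6. A cluster of 30 cells was led by the secreted factors SFRP2 and CLU and the metal-binding MT2A, and Muller glia markers summed to 8879 CPM in it. CALB1 was seen in 90.0% of these cells and PVALB in 86.7%. A cluster of 28 cells had RBFOX1, CNTNAP2 and LAMP5 on top, with CALB1 at 461 CPM, SLC6A9 (the glycine transporter) at 289 CPM and no UMI of LHX1, MEGF11, GJA10 or GAD1. PVALB read 27.1 CPM in this cluster. The 9 amacrine markers summed to 3536 CPM in it and to at most 2006 CPM in any other cluster. The amacrine cells used below held 2777 to 3296 CPM of them, so this cluster carried amacrine markers at the level of amacrine cells. The SFRP2 and CLU cluster and this one were left unnamed. A cluster of 23 cells, 18 of them in the core defined below, was led by PCP4, NEFL, CNTN5 and ZNF385D. Its ganglion cell markers summed to 949 CPM, against at most 58.8 CPM in any other cluster, and its cone markers to 1529 CPM. CALB1 was seen in 78.3% of these cells and PVALB in 87.0%. A cluster of 60 cells, 51 in that core, was led by VMO1, SAG, CNGA1 and GNAT1, with rod markers at 4182 CPM.

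The make-up varied by library, which was not tested. The cone-like cluster held 0, 3 and 6 cells over the graft and 2, 5 and 9 in control, so it was smaller over the graft in every pair. Cells with cone markers at 0.1% of UMIs or more were 1.79%, 11.4% and 12.1% of horizontal cells over the graft and 3.75%, 17.9% and 20.3% in control. The SFRP2 and CLU cluster held 19, 0 and 0 cells over the graft and 5, 2 and 4 in control, most of them from the LG5 graft punch. The 8 Muller glia markers summed to 3785, 736 and 766 CPM over the graft and 1896, 1378 and 1853 CPM in control. The 10 microglia or macrophage markers gave 160 CPM in the LG5 graft punch and at most 8.81 CPM elsewhere, and the 10 ganglion cell markers 419 CPM there and at most 37.6 CPM elsewhere. Of the ganglion cell markers, SNCG alone gave 82 UMIs in the LG5 graft punch, 81 of them from 2 cells. A core of 282 cells was defined, after the data were seen, by CALB1 and PVALB at 0.1% or more, cone markers under 0.1% and Muller glia markers under 0.5%. It held 86, 25 and 50 cells over the graft and 67, 16 and 38 in control. The core keeps the microglia and ganglion cell transcripts of the LG5 graft punch (60 of 61 and 151 of 160 UMIs), and results that change within it are given with it.

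**Figure D1:**
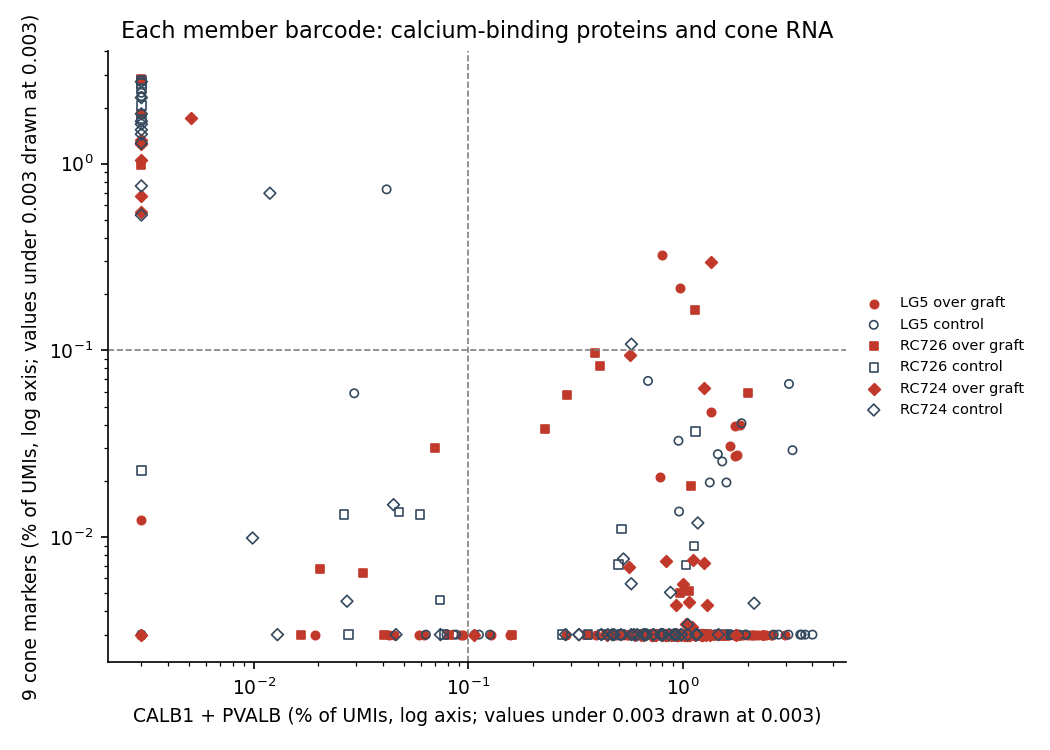
Each point is 1 of the 372 horizontal cells, by experiment (shape) and punch (filled, over the graft; open, control). The horizontal axis gives CALB1 and PVALB and the vertical axis the 9 cone markers, both as percent of the cell's UMIs on log axes, with very low values drawn at the axis floor. Dashed lines mark 0.1%: 304 cells lie at or right of the vertical one, 33 at or above the horizontal one, and the cone-like cells form the group at the upper left.

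The rule's own genes stood high in every library, as the rule requires. ONECUT2 read 1293, 951 and 1403 CPM over the graft and 1651, 874 and 1154 CPM in control. ONECUT1 read 890, 659 and 1140 CPM over the graft and 1214, 594 and 859 CPM in control, and LHX1 between 47.0 and 84.8 CPM. For each of the 3 genes the punches overlapped.

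Genes outside the rule separated these cells from the rest of the retina. Ranked by the smallest ratio to the whole library over the 6 libraries, CALB1 led with a log2 ratio of at least 4.93, and PVALB (at least 4.30), the matrix protein gene POSTN (3.73), IGFBP2 (3.72), THSD7B (3.70) and the matrix glycoprotein gene TNR (3.47) followed. The stress peptide gene CRH was among the leading 30 genes (3.07), as were the calretinin gene CALB2 (3.35), the bicarbonate exchanger SLC4A3 (3.37), tropomyosin TPM3 (3.14) and SEPTIN4 (3.03). The clusters and the rule both use these cells' own counts, so the ranking is a description.

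The calcium buffers varied more between experiments than between punches. CALB1 read 4727, 3618 and 6353 CPM over the graft and 7294, 2545 and 4304 CPM in control. In LG5 control was the higher, in RC726 and RC724 the graft side, so the groups overlapped, and the fitted log2 difference was 0.15 ± 0.32 (SE; edgeR adjusted p = 0.974; 95% interval -0.57 to 0.88). PVALB read 6667, 3448 and 2126 CPM over the graft and 8054, 2341 and 1331 CPM in control, with a log2 difference of 0.32 ± 0.29 (edgeR adjusted p = 0.929). CALB2 read 1217, 513 and 462 CPM over the graft and 982, 439 and 383 CPM in control; it was higher over the graft in all 3 pairs, by 0.27 ± 0.18 on the log2 scale (edgeR adjusted p = 0.920). Rods, which do not use CALB1 as a buffer, held 2.81 to 10.3 CPM of it.

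Transcription factors of the lineage did not separate the punches. PROX1, which promotes horizontal cell fate, read 673, 659 and 1048 CPM over the graft and 852, 681 and 744 CPM in control (log2 difference 0.04 ± 0.22 (SE), edgeR adjusted p = 1, 95% interval -0.46 to 0.55). TFAP2B, shared with amacrine cells, read 233, 388 and 458 CPM over the graft and 346, 399 and 327 CPM in control. The groups overlapped for both genes. MEIS1 read 118, 434 and 823 CPM over the graft and 134, 404 and 517 CPM in control (log2 difference 0.25 ± 0.22, edgeR adjusted p = 0.928). ISL1, a marker of another kind of horizontal cell in some species, had 2, 3 and 0 UMIs over the graft and 8, 0 and 6 in control.

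Horizontal cells read photoreceptor glutamate through AMPA receptors. The subunit gene GRIA4 read 157, 1040 and 1486 CPM over the graft and 219, 1223 and 1037 CPM in control, GRIA3 147, 617 and 751 CPM against 193, 658 and 648 CPM. GRIA2, the subunit that limits calcium entry, read 157, 220 and 151 CPM over the graft and 206, 209 and 199 CPM in control (log2 difference -0.23 ± 0.18 (SE), edgeR adjusted p = 0.924). None of the 3 separated the punches. The coupling and feedback genes GJA10 and GJA9 encode gap junction proteins: GJA10 read 113, 44.1 and 60.9 CPM over the graft and 97.9, 49.3 and 68.0 CPM in control, and GJA9 288, 176 and 202 CPM against 405, 146 and 180 CPM. For GABA, the synthetic enzyme gene GAD1 read 62.8, 27.8 and 56.8 CPM over the graft and 75.1, 65.8 and 36.8 CPM in control, and the vesicular transporter gene SLC32A1 62.8, 71.9 and 39.5 CPM against 68.5, 39.9 and 56.0 CPM; both overlapped. Carbonic anhydrase 2 (CA2), which feeds the proton and bicarbonate balance of the synaptic cleft, read 1586, 1084 and 1558 CPM over the graft and 2082, 1005 and 1112 CPM in control (log2 difference 0.07 ± 0.24, edgeR adjusted p = 0.989).

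MEGF11, a receptor that spaces horizontal cells into a mosaic, read 91.6, 346 and 630 CPM over the graft and 160, 549 and 526 CPM in control (log2 difference -0.34 ± 0.25 (SE), edgeR adjusted p = 0.920). Of the cytoskeletal genes, TPM3 read 1542, 1260 and 1489 CPM over the graft and 2242, 942 and 1455 CPM in control. NEFM, the medium neurofilament chain, read 518, 104 and 130 CPM over the graft and 261, 65.8 and 115 CPM in control; the fitted log2 difference was 0.60 ± 0.21 (edgeR adjusted p = 0.777). In the LG5 graft punch 152 of its 198 UMIs came from 2 cells, and 35 of 112 cells held a UMI, against 44 of 80 in control, where cells were deeper. NEFL, the light chain, read 678 CPM in the LG5 graft punch and 3.29 to 68.5 CPM elsewhere, and 253 of its 259 UMIs there came from 2 cells. Of the 31 horizontal cell markers outside the rule, 25 had enough counts to be tested. None passed the test, and their median log2 difference was 0.03, beside 0.00 over all genes tested.

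**Figure D2:**
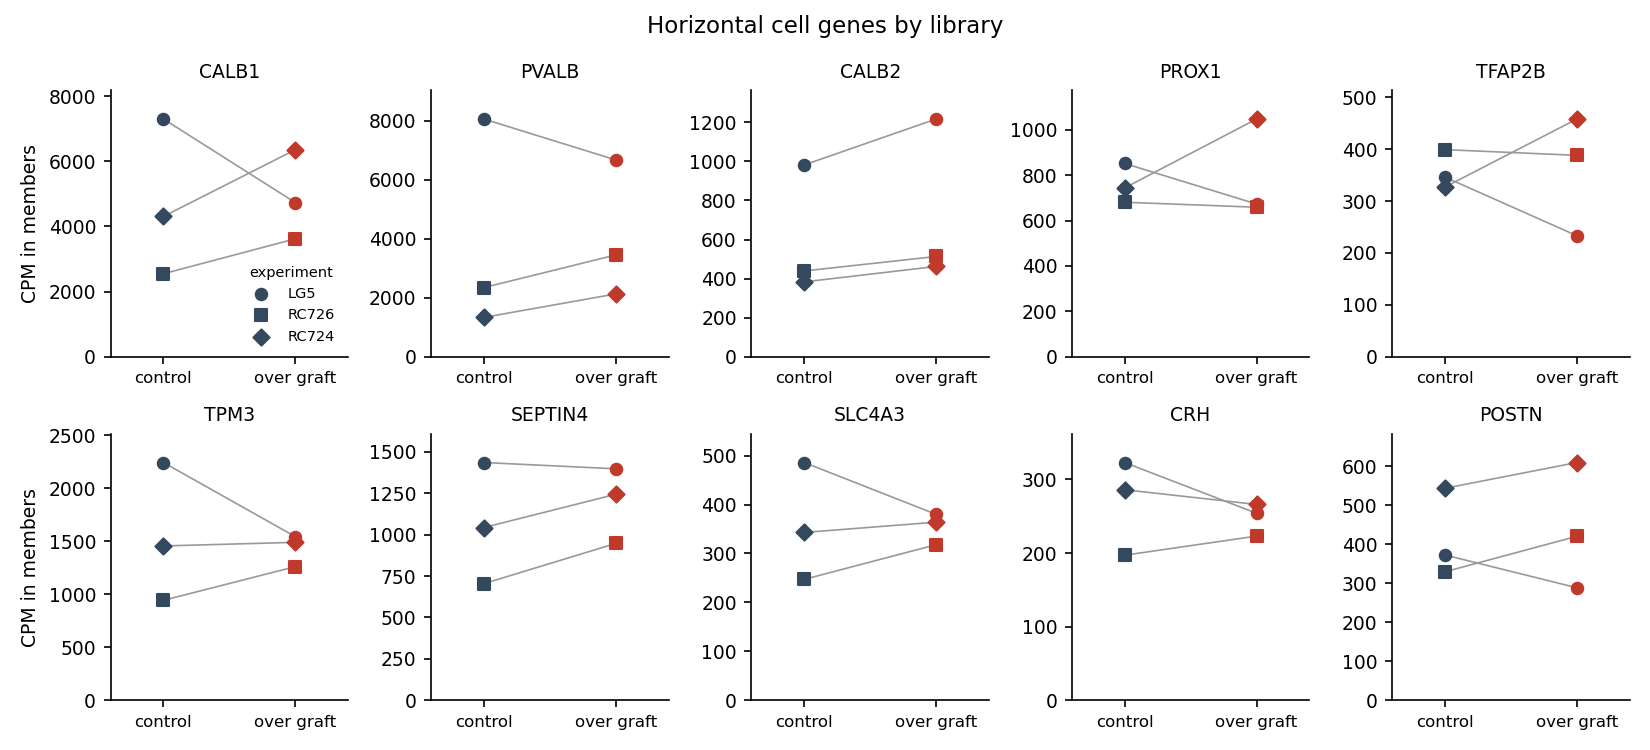
Levels of 10 horizontal cell genes outside the rule (vertical axis, CPM, from 0, with a scale per gene) in control and over the graft, with a line joining the punches of each experiment. CALB1 ran from 2545 to 7294 CPM; of the 10 genes, CALB2 alone had lines that all ran in 1 direction.

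The comparison of the punches asked which horizontal cell genes differ above a human organoid graft. No gene passed: 0 of 6836 tested genes (0%) had an adjusted p under 0.05 in edgeR's quasi-likelihood test, with the experiment as a block. At an unadjusted p under 0.05 there were 394 (5.76%), 133 higher and 261 lower over the graft. DESeq2 called 4 genes lower: the cone genes GNAT2, GUCA1A and PDE6H, and MIR8858. The count rested on the libraries used: without LG5 it was 123 (3 higher, 120 lower), without RC724 17 and without RC726 1, and without the filter on low counts 175 of 20956 genes (0.835%) were called.

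Of the 12 genes with the smallest p, 5 belong to photoreceptor transduction. GNAT2, the cone transducin subunit, read 5.23, 144 and 82.3 CPM over the graft and 32.6, 385 and 265 CPM in control. It was lower over the graft in all 3 pairs, by 1.63 ± 0.21 on the log2 scale (SE; edgeR adjusted p = 0.164). PDE6H, the inhibitory subunit of the cone phosphodiesterase, read 44.5, 891 and 378 CPM over the graft and 372, 2515 and 1097 CPM in control (log2 difference -1.88 ± 0.30, edgeR adjusted p = 0.164). GUCA1A, a cyclase activator of photoreceptors, and GNGT2, a cone transducin subunit, followed at log2 differences of -1.64 ± 0.23 and -1.53 ± 0.24. Beside these stand the cone-like cells: the 9 cone markers together gave 65.4, 1647 and 962 CPM over the graft and 604, 4556 and 2411 CPM in control. In the core they gave 25.2, 36.1 and 19.9 CPM against 38.8, 30.8 and 14.9 CPM. Of the 8 cone markers tested, 7 were lower and 1 (GUCA1C) higher at an unadjusted p under 0.05, with a median log2 difference of -1.56, and none passed after adjustment.

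NKAIN3, a sodium pump partner, stood in few cells. It read 10.5, 25.5 and 3.29 CPM over the graft and 9.79, 143 and 76.8 CPM in control (log2 difference -2.90 ± 0.54 (SE), edgeR adjusted p = 0.317). Of its control UMIs, 59 of 61 in RC726 and 91 of 96 in RC724 lay in the SFRP2 and CLU cluster. Of the others, SLC1A2, a glutamate transporter, read 15.7, 146 and 97.9 CPM over the graft and 42.4, 301 and 241 CPM in control, with 52 of its 63 UMIs in the RC726 graft punch in the cone-like cluster. The phosphodiesterase gene PDE4B and the secreted protein gene WFDC2 had log2 differences of -2.10 ± 0.41 and 1.08 ± 0.21, with adjusted p of 0.403 and 0.407 in edgeR. Of the control UMIs of PDE4B, 60 of 77 in RC726 and 55 of 145 in RC724 lay in the cone-like cluster. A further 17 and 77 lay in the SFRP2 and CLU cluster. For WFDC2, 45 of 101 UMIs in the LG5 graft punch came from 2 cells. In the graft punches of RC726 and RC724, 43 of 43 and 43 of 45 lay in the core.

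STMN2, a microtubule regulator of growing neurites, read 749, 237 and 318 CPM over the graft and 343, 122 and 167 CPM in control. It was higher over the graft in all 3 pairs, by 1.01 ± 0.18 on the log2 scale (SE; edgeR adjusted p = 0.273), and the ranges of the groups overlapped. Nearly all of its UMIs over the graft, 262 of 286, 100 of 102 and 386 of 386, lay in the core, where the log2 difference was 0.90 (edgeR adjusted p = 0.475). In LG5, 122 of the 286 came from 2 cells.

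PDE6G, the inhibitory subunit of the rod phosphodiesterase, read 382, 202 and 201 CPM over the graft and 206, 54.0 and 73.6 CPM in control, a log2 difference of 1.38 ± 0.22 (SE; edgeR adjusted p = 0.164). In the core it passed the test with a log2 difference of 1.59 (edgeR adjusted p = 0.00982), 1 of 2 genes called among 5209 (0.0384%). The other was APOC1, an apolipoprotein, at 1.99 (edgeR adjusted p = 0.00982), with 116, 68 and 44 UMIs in the core over the graft and 36, 9 and 7 in control. RNA set free from broken cells reaches every droplet, and its share here was estimated from rod markers at 34.7%, 26.2% and 22.1% of horizontal cell UMIs over the graft and 18.1%, 19.5% and 22.6% in control. PDE6G is itself one of the 11 markers behind this share. The cone-like cluster held 6888 CPM of the rod markers. In all horizontal cells the share therefore counts rod markers of cone-like cells as free RNA, and the core leaves these cells out. In the core the share was higher over the graft in every pair, at 28.5%, 18.0% and 11.2% against 12.5%, 3.17% and 5.63%. The 11 rod markers summed to 1797, 1314 and 450 CPM in the core over the graft and 1508, 300 and 295 CPM in control, so rod RNA moved with both calls. APOC1 read 5007, 2270 and 2210 CPM in rods over the graft and 2490, 1145 and 1062 CPM in control, and the part of free RNA in the differences of PDE6G and APOC1 was not tested.

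**Figure D3:**
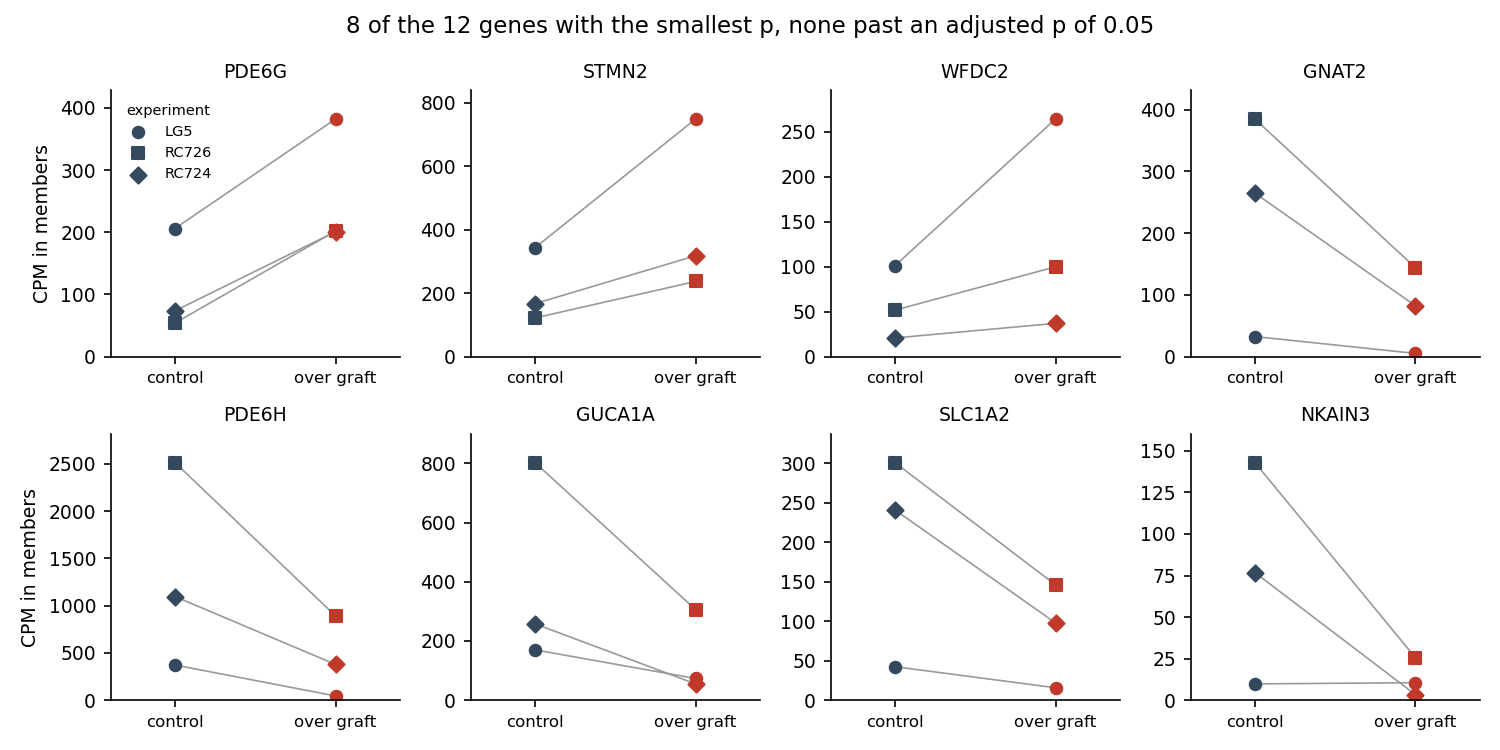
Levels of 8 of the 12 genes with the smallest p (vertical axis, CPM in horizontal cells, from 0, with a scale per gene) in control and over the graft, with a line joining the punches of each experiment. GNAT2, PDE6H, GUCA1A and SLC1A2 were lower over the graft in all 3 pairs and PDE6G, STMN2 and WFDC2 higher, and none had an adjusted p under 0.05.

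Of the response genes set for description, none passed in horizontal cells. The chaperone gene HSP90AA1 read 5258, 2416 and 1704 CPM over the graft and 3074, 1543 and 1725 CPM in control (log2 difference 0.47 ± 0.25). STAT3, which carries interleukin 6 signals, and the immediate early gene JUNB had log2 differences of 0.21 ± 0.33 and -0.85 ± 0.71. IRF7 had 14, 3 and 1 UMIs over the graft and 1, 0 and 0 in control, B2M 14, 10 and 8 against 4, 5 and 23, and the glial gene GFAP 9, 0 and 1 against 0, 0 and 0; these 3 were too low to test. MT2A, a metallothionein, had a log2 difference of -0.77 ± 1.20, and 1655 of its 1727 UMIs in the RC724 control and 977 of 1197 in the LG5 graft punch lay in the SFRP2 and CLU cluster.

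Gene lists described the same cells by function. Of 21 glycolysis genes tested, 0 passed, with a median log2 difference of 0.14. The 13 genes of the mitochondrial genome had a median of -0.26 and 12 of them were below 0, but their summed CPM was lower over the graft in LG5 alone (log2 ratio -0.89) and higher in RC726 (0.22) and RC724 (0.09). In the core the ratio of RC724 was -0.06. The 40 nuclear respiratory chain genes had a median of 0.18 with 34 above 0, and their sum was higher in all 3 pairs (0.12, 0.24 and 0.11). In the core this sum was higher in LG5 (0.18) and RC726 (0.28) and lower in RC724 (-0.06). Rods had log2 ratios of 0.10, 0.23 and 0.10 for the same sum. The 12 cholesterol synthesis genes tested had a median of -0.28 with 1 above 0, while the sum of all 19 was lower in RC724 alone (-0.69) and higher in LG5 (0.13) and RC726 (0.08). The 59 cytosolic ribosomal protein genes had a median of 0.09. Ionotropic glutamate receptor genes (9 tested, median -0.32), GABA genes (10, -0.31), voltage-gated channels (26, -0.10) and synaptic vesicle genes (23, -0.07) included none past the threshold. Over all genes tested the median was 0.00.

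The next comparison asked where the change over the graft differs between horizontal cells and rods, the most numerous class. Rods were 17184 barcodes chosen by GNAT1, NR2E3, NRL and PDE6B, and the difference itself was tested. In rods alone, 8.53% of 14970 genes were called higher over the graft and 7.92% lower. It passed for 209 of 14139 genes (1.48%): for 30 (0.212%) the log2 change over the graft was higher in horizontal cells than in rods, and for 179 (1.27%) it was lower. Genes induced by type I interferon stood among the second group: of 29 tested, 10 were called lower and 0 higher, with a median difference of -1.98, beside -0.05 over all genes tested. Of 18 MHC class I and peptide loading genes, 4 were called lower and 0 higher, with a median of -1.83. In the core, where 1.97% of all genes tested were called lower, 10 and 5 of these were, of which 9 and 4 were called in all horizontal cells too. These lists were chosen with the rod response known. Without LG5 the difference passed for 715 genes and without RC726 for 62. With no term for the library it passed for 9, and every interferon or class I gene named below then missed the threshold (edgeR adjusted p = 0.0728 to 0.408) with its direction kept.

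MX1, an antiviral GTPase, read 68.1, 11.6 and 1.65 CPM in horizontal cells over the graft and 9.79, 4.70 and 5.60 CPM in control. Rods held 255, 58.7 and 62.2 CPM over the graft and 2.96, 1.96 and 2.88 CPM in control, with no overlap. These are few UMIs in horizontal cells, 26, 5 and 2 over the graft and 3, 2 and 7 in control. Of the 7 in the RC724 control, 6 came from 2 cells and 5 lay in the SFRP2 and CLU cluster, and the core of RC724 held 2 in each punch, so RC724 gives no direction. Rods were higher in all 3 pairs, and the difference in log2 change was -4.35 ± 0.68 (SE; edgeR adjusted p = 0.00565). ISG15, a ubiquitin-like modifier, read 175, 92.8 and 18.1 CPM in horizontal cells over the graft and 22.8, 21.1 and 9.61 CPM in control, and 798, 109 and 122 CPM against 12.7, 13.8 and 11.1 CPM in rods. In horizontal cells 26 of its 40 UMIs in the RC726 graft punch and 18 of 22 in that of RC724 came from 2 cells, and 7 of 35 and 6 of 58 cells held a UMI there, against 6 of 28 and 5 of 59 in control. The sums were higher over the graft in every pair of both classes, and the log2 change in horizontal cells differed from that in rods by -1.95 ± 0.43 (edgeR adjusted p = 0.0353). Without RC724 the calls of ISG15, IRF9, IFI35, DDX58, HERC6 and B2M were lost, with directions kept.

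Other interferon-induced genes followed the same order. RNF213, a giant ubiquitin ligase, read 73.3, 20.9 and 13.2 CPM in horizontal cells over the graft and 3.26, 32.9 and 22.4 CPM in control, against 304, 130 and 178 CPM and 8.66, 17.5 and 15.5 CPM in rods (difference -3.38 ± 0.45, edgeR adjusted p = 0.00177). It was higher over the graft in horizontal cells only in LG5. UBE2L6, the enzyme that carries ISG15, differed by -2.21 ± 0.29 (edgeR adjusted p = 0.00168), IRF9 by -2.27, IFI35 by -3.70, the RNA sensor DDX58 by -3.34 (-0.14 in the core) and HERC6 by -1.98. IFGGB2, an interferon-inducible GTPase, had 15, 2 and 1 UMIs in horizontal cells over the graft and 0, 0 and 8 in control; its fitted difference of -6.89 rests on libraries at 0 and turned to 2.48 without RC724.

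Of the antigen presentation genes, DLA-12, a class I heavy chain, read 47.1, 62.7 and 17.3 CPM in horizontal cells over the graft and 35.9, 108 and 25.6 CPM in control. Rods held 138, 128 and 45.5 CPM over the graft and 27.5, 21.8 and 19.1 CPM in control, and the difference was -2.40 ± 0.35 (SE; edgeR adjusted p = 0.00317). The heavy chain DLA-64 differed by -1.56 ± 0.27 (edgeR adjusted p = 0.00952), the peptide loading factor TAPBP by -2.83 ± 0.46 (edgeR adjusted p = 0.00689) and the light chain B2M by -2.52 ± 0.48 (edgeR adjusted p = 0.0167). For TAPBP, rods went from 9.29 to 14.4 CPM in control to 103 to 158 CPM over the graft, and horizontal cells from 9.61 to 22.8 CPM to 9.05 to 39.3 CPM.

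**Figure D4:**
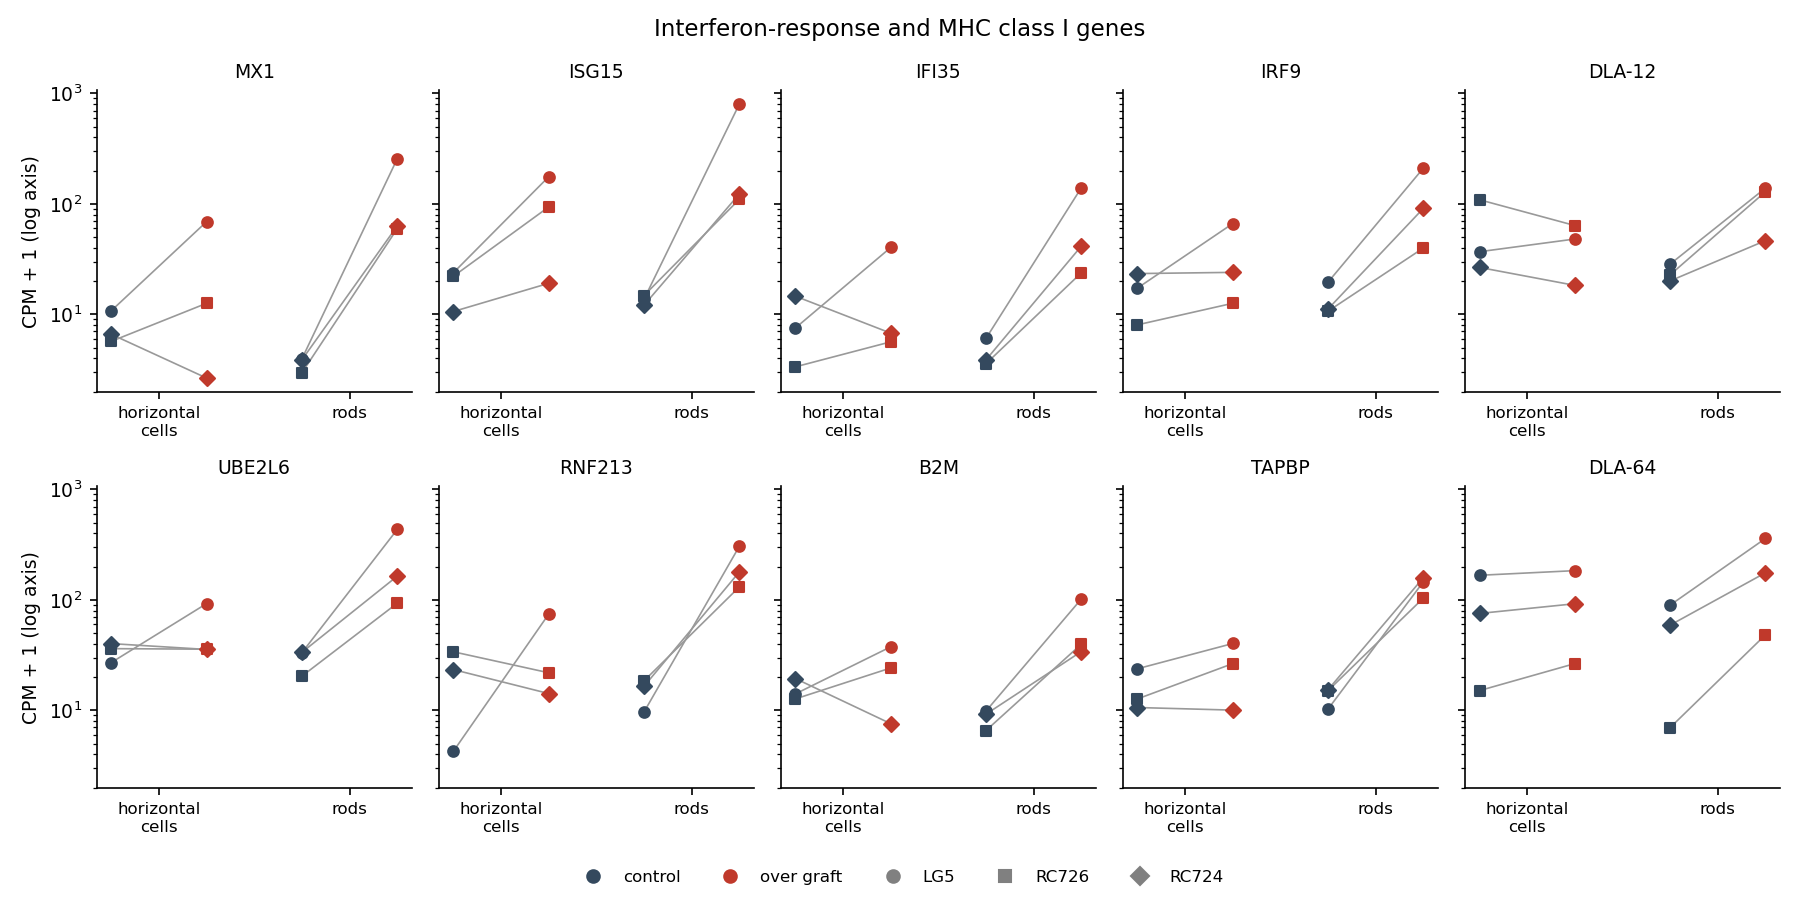
Levels of 10 interferon and class I genes (vertical axis, CPM + 1, log axis) in horizontal cells and in rods, in control (blue) and over the graft (red), with a line joining the punches of each experiment. In rods every line rises, for MX1 from 1.96 to 2.96 CPM in control to 58.7 to 255 CPM over the graft, and in horizontal cells the lines of MX1, IFI35, UBE2L6, RNF213, B2M, TAPBP and DLA-12 run both ways.

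Summed over the interferon list without IFI6, the horizontal cells held 1225, 545 and 328 CPM over the graft and 317, 294 and 367 CPM in control. LG5 and RC726 had the higher sum over the graft, RC724 the lower. In the core it was 886, 562 and 330 CPM over the graft and 252, 339 and 304 CPM in control, higher over the graft in all 3 pairs. In all horizontal cells, free RNA alone would give 887, 280 and 270 CPM over the graft and 96.9, 90.8 and 137 CPM in control. This was under the observed sum of all horizontal cells in all 6 libraries. For the core the estimate was 729, 193 and 136 CPM over the graft and 67.3, 14.8 and 34.0 CPM in control. The core's estimate was thus higher over the graft in every pair too, and the part of free RNA in the core's sums was not tested. Rods held 4656, 1482 and 2160 CPM over the graft and 346, 342 and 378 CPM in control. Of the 43 interferon genes in the files, 8 were higher over the graft in all 3 pairs in horizontal cells and 33 in rods, but in horizontal cells 17 of the 43 had a UMI in all 6 libraries and 6 had none in any, so these counts are not comparable. Of the 20 class I genes, 4 and 18 were, beside 1490 and 4515 of the 14139 genes tested.

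**Figure D5:**
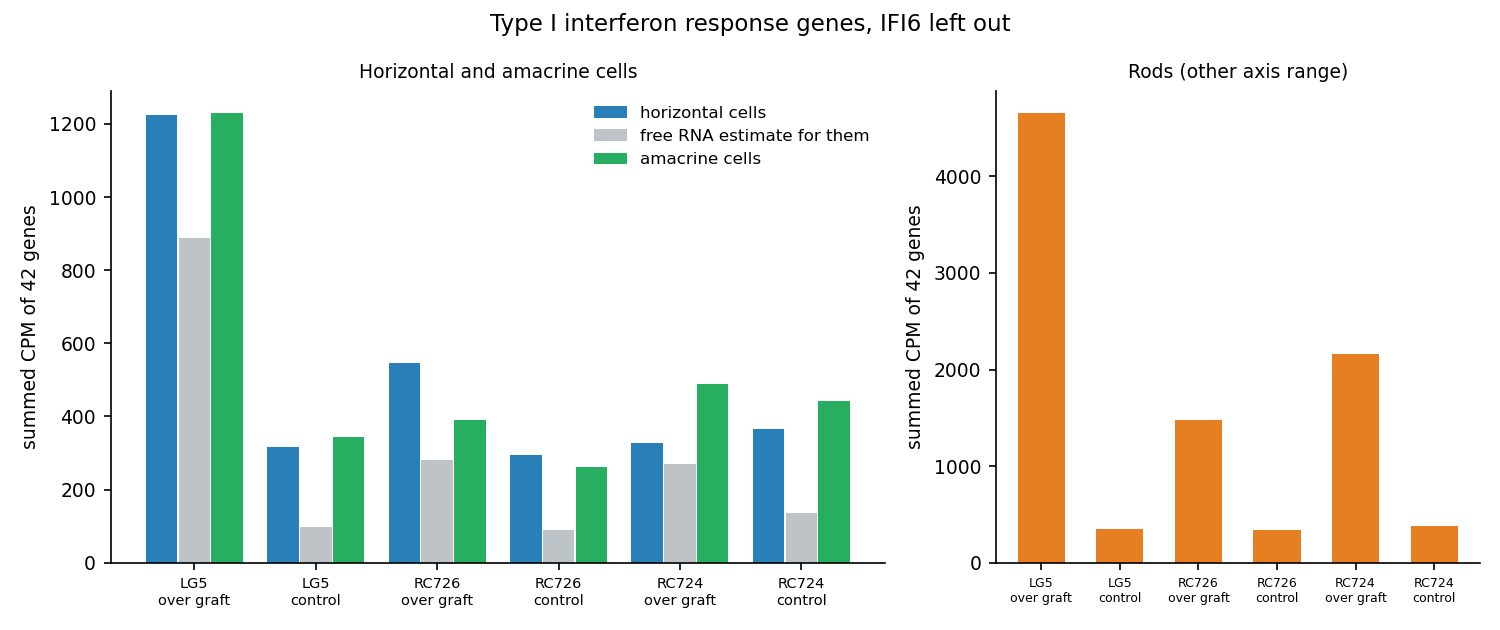
Summed CPM of the 42 interferon genes without IFI6 (vertical axes, from 0, with another range for rods) by library. The left panel shows horizontal cells, the sum expected in them from free RNA, and amacrine cells, and the right panel rods: over the graft, horizontal cells held 328 to 1225 CPM and rods 1482 to 4656 CPM.

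Outside these lists, the named genes with the lowest change in horizontal cells against rods included matrix genes. CD44, a hyaluronan receptor, read 5.23, 4.64 and 0.823 CPM in horizontal cells over the graft and 6.53, 42.3 and 32.8 CPM in control (difference from rods -4.63, edgeR adjusted p = 0.00143). SULF1, a heparan sulfatase, differed by -4.61 and the matrix gene ABI3BP by -3.90, with adjusted p of 0.0104 and 0.00685 in edgeR. SULF1 was a leading gene of the SFRP2 and CLU cluster, of which RC726 and RC724 had cells in control only. IL6ST, the shared receptor of interleukin 6 cytokines, read 105, 46.4 and 62.5 CPM in horizontal cells over the graft and 97.9, 54.0 and 68.8 CPM in control. Rods held 195, 130 and 173 CPM over the graft against 86.4, 67.1 and 71.0 CPM, and the difference was -1.17 ± 0.25 (SE; edgeR adjusted p = 0.0276).

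Of the genes with a higher change in horizontal cells than in rods, the 5 named first here fell in rods (edgeR adjusted p = 0.0303 or less). PDE6G had the smallest p of them, with a difference of 2.40 ± 0.24 (SE; edgeR adjusted p = 0.000219). The rod channel gene CNGA1 differed by 1.75, CCDC125 by 1.90, TTC39C by 1.76 and RCBTB2 by 1.69. Without RC726 these 4 missed the threshold. Rod transcripts reach horizontal cell barcodes as free RNA too, and its part in these differences was not tested. ESRRB, a nuclear receptor of rods and horizontal cells, read 60.2, 85.9 and 204 CPM in horizontal cells over the graft and 68.5, 108 and 141 CPM in control, while rods held 34.3, 137 and 106 CPM against 117, 239 and 291 CPM (difference 1.51 ± 0.29, edgeR adjusted p = 0.0178).

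Amacrine cells, the inhibitory interneurons of the inner retina, were compared in the same way with 686 barcodes. The difference passed for 0 of 10529 genes (0%) in edgeR, and 676 (6.42%) had an unadjusted p under 0.05. Without LG5 it passed for 372 genes and without RC724 for 54. In amacrine cells the interferon list without IFI6 summed to 1230, 390 and 489 CPM over the graft and 344, 261 and 443 CPM in control; with IFI6, RC724 turned from higher to lower over the graft, at 546 against 558 CPM. Beside the horizontal cells, at 1225, 545 and 328 CPM and 317, 294 and 367 CPM, the graft punch of RC726 was lower and that of RC724 higher in amacrine cells. The horizontal cells compared here include the cluster with RBFOX1, CNTNAP2 and LAMP5 on top, which carried amacrine markers. The absence of calls does not show that both classes responded alike.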

How the data were processed

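Each of the 6 libraries was deposited as a sparse matrix of raw UMI counts per gene and barcode. Per the file headers these counts were made with Cell Ranger 6.0.2 (both LG5 libraries), 7.1.0 (RC726 over the graft and both RC724 libraries) and 7.0.0 (RC726 control). Per the labels' protocols, punches were digested for 10 min in 0.25% trypsin and loaded for 3' libraries. The sources used here do not state the genome build, the annotation or how intron and human reads were handled. The members, gene lists and tests were chosen with earlier results of these data known.

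Counts of horizontal cells, rods and amacrine cells were summed per library and tested with edgeR 4.0.16 in R 4.3.3 (quasi-likelihood, TMM, filterByExpr, Benjamini-Hochberg over all genes tested, threshold 0.05). The experiment was a block. Both punches of an experiment deviated together (correlations of 0.799, 0.662 and 0.643 in LG5, RC726 and RC724), and the numbers come from the titles. Differences between classes were tested as an interaction with a term per library. With 3 pairs, 2 residual degrees of freedom were supported by a prior, taken across genes, of 7.05 in horizontal cells. In the differences from rods and amacrine cells the prior was 13.4 and 7.29, beside 2 residual degrees of freedom each. Named genes were those past the threshold, or, with fewer than 8, the 12 with the smallest p. Added to these were the horizontal cell markers, 8 response genes, up to 4 called members of each list, and the 6 largest differences between classes in each direction. A few genes this rule names are not reported here.

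Doublets were kept: an alternative left out the 6% of barcodes with the highest Scrublet score and those over 20% mitochondrial UMIs. Free RNA was estimated as the share of rod markers in horizontal cells over that in the whole library. Rod markers of the cone-like cells enter this estimate. Clusters used scanpy 1.11.5 (1500 variable genes, 10 components, 10 neighbours, Leiden resolution 1). The test within horizontal cells and that of the difference from rods were run on simulated counts with a fixed spread per class. That check does not cover UMIs that come from few cells. The core, and fits with it, were added after the data were seen. DESeq2 1.42.0, no block, other size factors, no filter and each experiment left out were the other alternatives.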

Additional observations from a re-analysis of the deposited data

Results flagged for a closer look

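The genes below stood out because the test of the difference itself found another change over the graft in horizontal cells than in rods (edgeR interaction, adjusted p under 0.05). Values are the log2 change in horizontal cells minus that in rods. In the interferon list they were IFGGB2 at -6.89, MX1 at -4.35, IFI35 at -3.70, RNF213 at -3.38, DDX58 at -3.34, IRF9 at -2.27, UBE2L6 at -2.21, HERC6 at -1.98 and ISG15 at -1.95. In the class I list they were TAPBP at -2.83, B2M at -2.52, DLA-12 at -2.40 and DLA-64 at -1.56. Further genes below rods were CD44 at -4.63, SULF1 at -4.61 and ABI3BP at -3.90. Above rods were PDE6G at 2.40, CCDC125 at 1.90, TTC39C at 1.76, CNGA1 at 1.75 and RCBTB2 at 1.69. Of these genes, PDE6G passed under all 7 alternatives run (1 of them, with free RNA subtracted, rests on rod markers that include PDE6G), and every other one missed the threshold under at least 1.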

How the results depend on the processing

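Over the graft against control, 0 genes were called in horizontal cells with the replicate block and 0 with no replicate block, where 30 in place of 394 had an unadjusted p under 0.05. The count was 4 with DESeq2, 175 without the filter on low counts, 4 with the mitochondrial and doublet filter, 2 with free RNA subtracted and 2 in the core. Leaving out 1 experiment gave 1 to 123 calls in all cells and, in the core, 4 (without RC726), 11 (without LG5) and 25 (without RC724). The cause of these shifts was not tested. For the difference from rods, 209 calls became 9 without a term per library, 467 in the core, 378 with free RNA subtracted, and 62 to 715 with 1 experiment left out. All 209 were among the 242 called with other size factors, and 154 among the 467 of the core. For the difference from amacrine cells, 0 calls became 0 to 372 with 1 experiment left out. The log2 ratio of the share, 0.01, was 0.22 in the core and -0.05 to 0.10 with 1 experiment left out. That of the median UMI count was -0.42 to -0.03. Of the named genes' values, IFGGB2 ranged from -8.54 to 2.48 (without RC724, a reversal) with 1 experiment left out, and was -9.05 with free RNA subtracted. Of 210 values of differences from rods, 161 kept their side of the threshold, 42 lost the threshold and 6 gained it. Of 506 values within horizontal cells, 463 kept their side and 43 gained it. Of all these values, 94 never past the threshold changed sign. At 28 to 112 cells a library, genes with few UMIs, such as IRF7, B2M and GFAP, could not be tested within horizontal cells.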
